A study of Ananas comosus with 8 samples.

Results

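A set of 110 pineapple genes had at least 2 FPKM in the green tip of the leaf and was listed at 0 in the white base. FPKM gives the fragments mapped to a transcript relative to its length and to all mapped fragments. The genes were chosen by these FPKM values alone from the 27024 genes of the deposited matrix. They made up 0.407% of all genes, and 0.753% of the 14607 genes with at least 2 FPKM in the green tip. The study compared both ends of the 'D' leaf of the pineapple (Ananas comosus) cultivar MD-2 by RNA-seq and by bisulfite sequencing. The green tip is the photosynthetic end and the white base the non-photosynthetic end. Both tissues were sampled by the study at several times of day and night. The labels name 2 RNA-seq libraries for the green tip and 2 for the white base, and give neither a time of day nor the age of the plants. The study describes 2 RNA-seq libraries per tissue for only 1 of these times. Whether the matrix comes from that time is not stated, so a 0 in the white base may hold for 1 time of day only. They do not say whether the RNA-seq libraries of a tissue came from separate plants. The matrix holds 1 value per gene and tissue, which is the authors' value, so that no spread between libraries can be given and no difference was tested. The tissues are whole leaf pieces, in which fewer cells of a type and less RNA per cell cannot be told apart.

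A pineapple leaf, like that of other monocots, grows from its base, so the white base holds the youngest tissue, shielded from light, and the green tip the mature tissue. The green tip carries out Crassulacean acid metabolism (CAM), in which CO2 is bound into malate at night and released for the Calvin cycle behind closed stomata by day. The white base imports sugar. The carbon fixation genes picked here as markers, as named by the study, were all higher in the green tip. They are a choice from the study's list of 38 carbon fixation genes, which the study picked out on these same samples. Their shared direction therefore does not describe the list, and the direction of its other genes is not given here. Of that list, 2 genes were at 0 in the green tip and none was at 0 in the white base. Aco006181, a beta carbonic anhydrase, which interconverts CO2 and bicarbonate, had 136 FPKM in the green tip, against 0.485 FPKM in the white base. Aco024818, a pyruvate orthophosphate dikinase, which regenerates phosphoenolpyruvate, had 396 FPKM in the green tip, against 5.81 FPKM in the white base. Aco005402 and Aco002732, the other beta carbonic anhydrases, had 198 and 40.3 FPKM in the green tip, against 9.68 and 15.9 FPKM in the white base. Aco010025, a phosphoenolpyruvate carboxylase, had 633 FPKM in the green tip, against 239 FPKM in the white base. None of these genes was at 0 in the white base.

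None of the 110 genes was among the 130 genes of the study's 6 lists, which cover DNA methylation, carbon fixation, CAM-related transporters, glycolysis and gluconeogenesis, the circadian clock and MADS-box factors. Of those 130 genes, 115 had at least 2 FPKM in the green tip, and the 1 gene listed at 0 in the white base was at 0 in the green tip too. With a share of 0.753% among all genes at that level, few or no members would fall on lists of this size, so nothing is read from the count of 0. On the carbon fixation list, the lowest white base value beside at least 2 FPKM in the green tip was that of Aco006181 above. On the transporter list it was 0.201 FPKM for Aco023036, which the study names as a vacuolar acid invertase, an enzyme that splits stored sucrose. No gene identifier of the matrix was in the RefSeq table of Ananas comosus genes used here, so the members are given by identifier, without a name, a role or a sequence.

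The members had low levels in the green tip. Their median was 3.91 FPKM, with quartiles of 2.87 and 8.29 FPKM, against a median of 16.8 FPKM and quartiles of 7.34 and 38.2 FPKM for the 14497 other genes with at least 2 FPKM. Of the 110 members, 64 lay under 5 FPKM, 21 from 5 to under 10, 13 from 10 to under 20, 6 from 20 to under 50, and 6 at 50 FPKM or more. Members under 5 FPKM made up 58.2% of the set, against 16.0% of the other genes. Together the members held 1582 FPKM, or 0.139% of the summed FPKM of the green tip. The rule sets the lower end of these values, which is the same for both sets. The other part of the rule, a 0 in the white base, was met most often by genes of low green tip level, as given below. The shape of the distribution and its distance to the other genes are therefore given as a description.

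**Figure D1:**
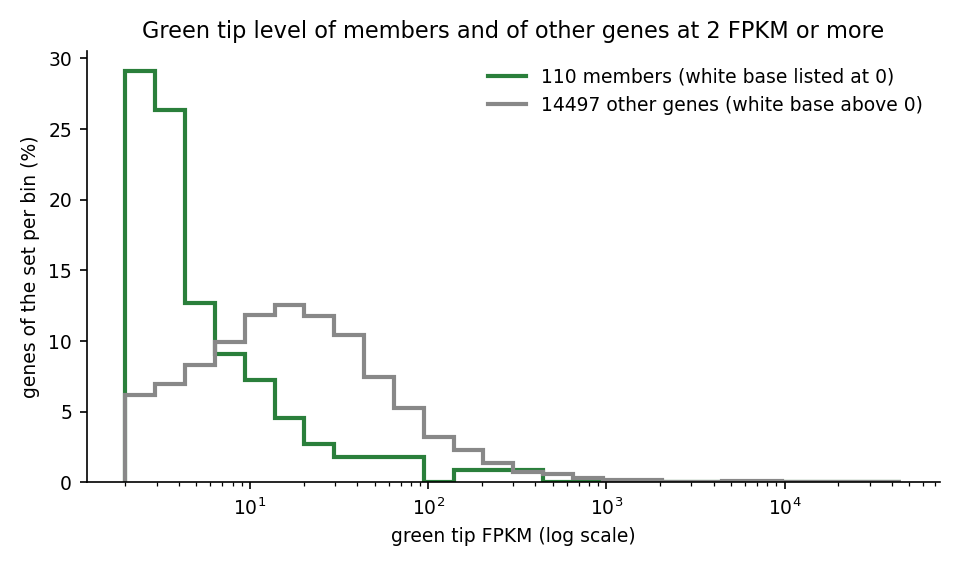
Share of genes per bin of green tip FPKM (log scale) for the 110 members and for the 14497 other genes with at least 2 FPKM in the green tip; each line is 1 set, with 1 value per gene. The members pile up next to the limit of 2 FPKM, with a median of 3.91 FPKM, whereas the other genes have a median of 16.8 FPKM.

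A small number of members had high levels. Aco000482 was the highest, with 301 FPKM in the green tip, rank 336 of all genes in that tissue, and 0 in the white base. Aco016349 had 215 FPKM and Aco023061 had 147 FPKM in the green tip, again with 0 in the white base. These were the only members among the 1000 highest genes of the green tip, and they held 41.9% of the summed FPKM of the set. Aco012769 had 87.6 FPKM, Aco029142 74.6 FPKM and Aco021386 53.8 FPKM in the green tip. Below 50 FPKM followed Aco018372 with 48.8, Aco015796 with 42.2, Aco011319 with 32.8 and Aco011964 with 25.4 FPKM. Aco012645 had 22.3, Aco024832 20.6, Aco000929 19.3, Aco004671 16.3 and Aco028281 16.1 FPKM. These 15 highest members held 71.0% of the summed FPKM of the set. The remaining 95 members had 16.0 FPKM or less.

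At the lower limit the set has no natural edge. The members just inside were Aco020859 with 2.01, Aco004049 with 2.07, Aco020351 with 2.104, Aco017642 with 2.12 and Aco030527 with 2.12 FPKM in the green tip. Just outside, and also at 0 in the white base, were Aco021622 and Aco027319 with 1.999, Aco014044 with 1.98, Aco014470 with 1.94 and Aco011875 with 1.91 FPKM. In all, 668 genes were above 0 in the green tip and at 0 in the white base. Of these, 558 were under 2 FPKM, and the median of the 668 was 0.331 FPKM.

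On the white base side, only 10 genes with at least 2 FPKM in the green tip lay above 0 and at most at 0.05 FPKM. The highest of them were Aco017072 with 13.4 FPKM in the green tip, against 0.0245 FPKM in the white base, and Aco014042, with 12.0 FPKM in the green tip, against 0.0291 FPKM in the white base. Aco019525 had 11.4 FPKM in the green tip, against 0.0230 FPKM in the white base. Aco003556 had 8.75 FPKM in the green tip, against 0.0362 FPKM in the white base. Aco007078 had 7.18 FPKM in the green tip, against 0.0256 FPKM in the white base. Thus 18 of the members had a higher green tip level than any gene in this band. The band holds only 10 genes, however, and their median green tip level was 7.02 FPKM, above the 3.91 FPKM of the members. A further 27 genes had over 0.05 and up to 0.1 FPKM in the white base, with a maximum of 65.3 FPKM in the green tip for Aco003918, which had 0.0614 FPKM in the white base. From there to 0.5 FPKM in the white base lay 169 genes, of which 13 had at least 50 FPKM in the green tip. Aco012537 was the highest of these, with 241 FPKM in the green tip, against 0.176 FPKM in the white base. The median green tip level was 5.42 FPKM for the 27 genes and 4.45 FPKM for the 169 genes. An exact 0 in a matrix of estimates can be a failed estimate as well as a lack of reads, so each member is described only as listed at 0. No ratio to the white base is given for a member, since the matrix carries no read counts from which a lower bound could be derived.

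**Figure D2:**
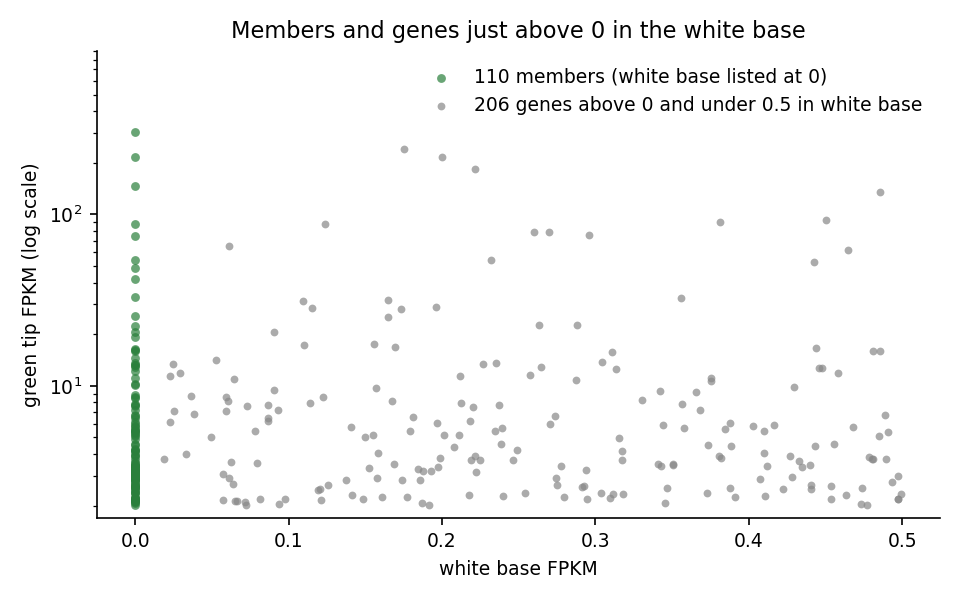
Green tip FPKM (log scale) against white base FPKM, 1 point per gene, for the 110 members (at 0) and the 206 genes with at least 2 FPKM in the green tip and a white base value above 0 and under 0.5 FPKM. The 110 members reach 301 FPKM, with a median of 3.91 FPKM. The 10 genes above 0 and at most at 0.05 FPKM in the white base reach 13.4 FPKM in the green tip, with a median of 7.02 FPKM.

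For a comparison at like green tip levels, the 14607 genes with at least 2 FPKM were sorted into 10 groups of equal size. In the lowest group, up to 3.63 FPKM, 53 genes or 3.63% were at 0 in the white base. The share was 1.37% in the next group, 0.753% in the third, 0.342% in the fourth and 0.548% in the fifth. From the sixth group on, from 16.6 FPKM upward, it stayed between 0.0684% and 0.274% per group, with 1 to 4 members in each. In the highest group, above 88.0 FPKM, 3 of 1461 genes were members, or 0.205%. Most of the decline therefore lay in the first 4 groups, up to 12.3 FPKM, and the last 2 groups were not lower than the seventh.

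The mirror case was more frequent. Of the 15593 genes with at least 2 FPKM in the white base, 383 were listed at 0 in the green tip, or 2.46%. In the lowest of 10 groups by white base level, 136 genes or 8.72% were at 0 in the green tip, and in the highest group 18 genes or 1.15%. The white base genes at 0 in the green tip had a median of 5.41 FPKM and a maximum of 584 FPKM in the white base. The summed FPKM of the green tip was 1.86 times that of the white base, so the same FPKM is a smaller share of all FPKM in the green tip. Both sets share the same pair of columns, and the spread of either count between libraries is unknown.

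**Figure D3:**
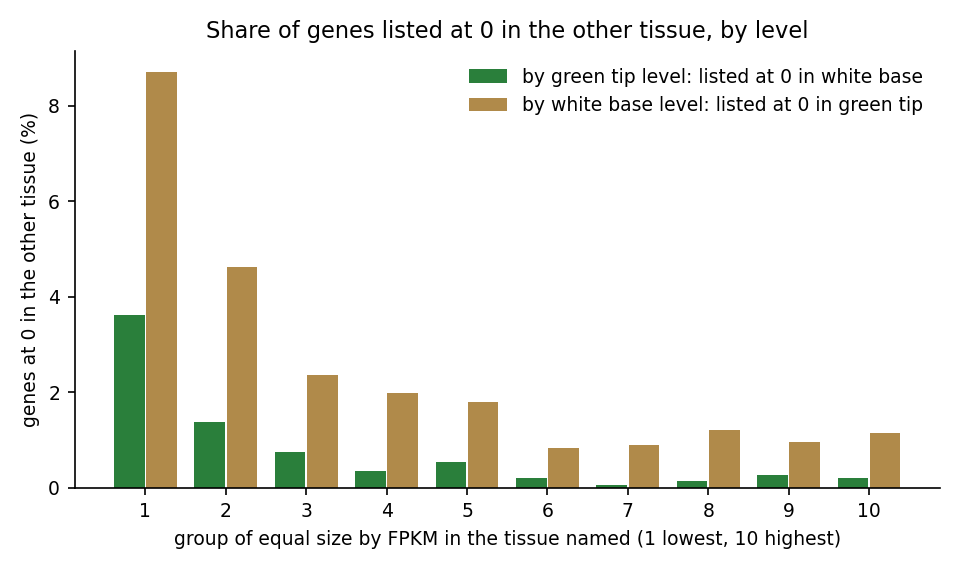
Percent of genes listed at 0 in the other tissue, in 10 groups of equal size by FPKM; green bars sort genes by green tip level (0 in the white base), brown bars by white base level (0 in the green tip). The green bars run from 3.63% in the lowest group to 0.205% in the highest and the brown bars from 8.72% to 1.15%.

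Some members had exactly the same green tip value as another gene. All digits written in the matrix were equal for 12 of the 110 members and another gene with at least 2 FPKM, or 10.9%. This held for 1.91% of the other genes, and for 2.04% of them when weighted to the members' green tip levels. Aco010191 and Aco011087, both members, had 3.24 FPKM, as did the non-members Aco004438 and Aco028291, with 4.14 and 2.26 FPKM in the white base. Aco014390 and Aco019043, also both members, had 3.98 FPKM. In the other cases the gene of equal value was expressed in the white base. For Aco030798 with 2.87 FPKM it was Aco003887, which had 210 FPKM in the white base. The matrix gives no gene lengths or counts, so how many fragments stand behind such a value is unknown. This comparison was made after the equal values had been seen.

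Gene identifiers carry a number that was not used by the rule, and 88.9% of genes that follow each other in the matrix differ by 1. The number gives the order in the annotation, and positions on the chromosomes were not used here. By this number, 16 of the 110 members, or 14.5%, stood directly beside another member. Of the 14497 other genes with at least 2 FPKM in the green tip, 89 or 0.614% stood beside a member, and 0.526% when weighted to the members' green tip levels. The 16 genes formed 8 pairs, and no run was longer than a pair. The median distance of a member to the nearest other member was 63 numbers, so that most members stood alone. Among the 383 white base genes at 0 in the green tip, 26 or 6.79% stood beside another gene of that set, against 2.76% of other genes weighted to the same white base levels. These shares are descriptions, and the difference between the sets was not tested.

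The pair with the highest levels was Aco018372 and Aco018373, with 48.8 and 5.31 FPKM in the green tip and 0 for both in the white base. The gene before the pair, Aco018371, had 10.97 FPKM in the green tip, against 0.0644 FPKM in the white base. Aco018374, just after it, had 7.10 FPKM in the green tip, against 7.81 FPKM in the white base. Aco018375, the gene after that, again had 0 in the white base, with 1.504 FPKM in the green tip. Of 5 genes with consecutive numbers, 4 thus had under 0.1 FPKM in the white base, and the fourth in order did not.

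Aco020013 and Aco020014 had 16.0 and 2.46 FPKM in the green tip, and Aco020015, the next gene, had 1.76 FPKM there and 0 in the white base. The 3 genes with the preceding numbers were at 0 in both tissues. The next number with a row, Aco020017, was also at 0 in both tissues, so these 3 genes stood between genes listed at 0. Aco010494 and Aco010495 had 10.2 and 5.96 FPKM in the green tip. The gene before them, Aco010493, had 1.79 FPKM in the green tip, against 0.839 FPKM in the white base, and the gene after them, Aco010496, had 4.78 FPKM in the green tip, against 13.8 FPKM in the white base. This pair therefore lay between genes that were not at 0 in the white base, and Aco010496 was higher there.

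Aco024825 and Aco024826 had 2.49 and 12.2 FPKM in the green tip. Aco024827, the next gene, had 2.79 FPKM in the green tip, against 1.06 FPKM in the white base. The member Aco024832, with 20.6 FPKM in the green tip, followed 6 numbers after Aco024826, and the gene next to it, Aco024833, had 4.43 FPKM in the green tip, against 0.208 FPKM in the white base. These 3 members lay within 8 consecutive genes, the closest trio of the set. Aco012747 and Aco012748 had 7.24 and 5.77 FPKM in the green tip. Aco012746, the gene before, had 31.9 FPKM in the green tip, against 2.47 FPKM in the white base, and Aco012745, before that, had 23.5 FPKM in the green tip, against 0.897 FPKM in the white base. The 3 genes after the pair were at 0 in both tissues. Within the 8 pairs, the ratio of the higher to the lower green tip level ran from 1.005 for Aco008304 and Aco008305, with 2.57 and 2.58 FPKM, to 9.18 for the first pair.

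**Figure D4:**
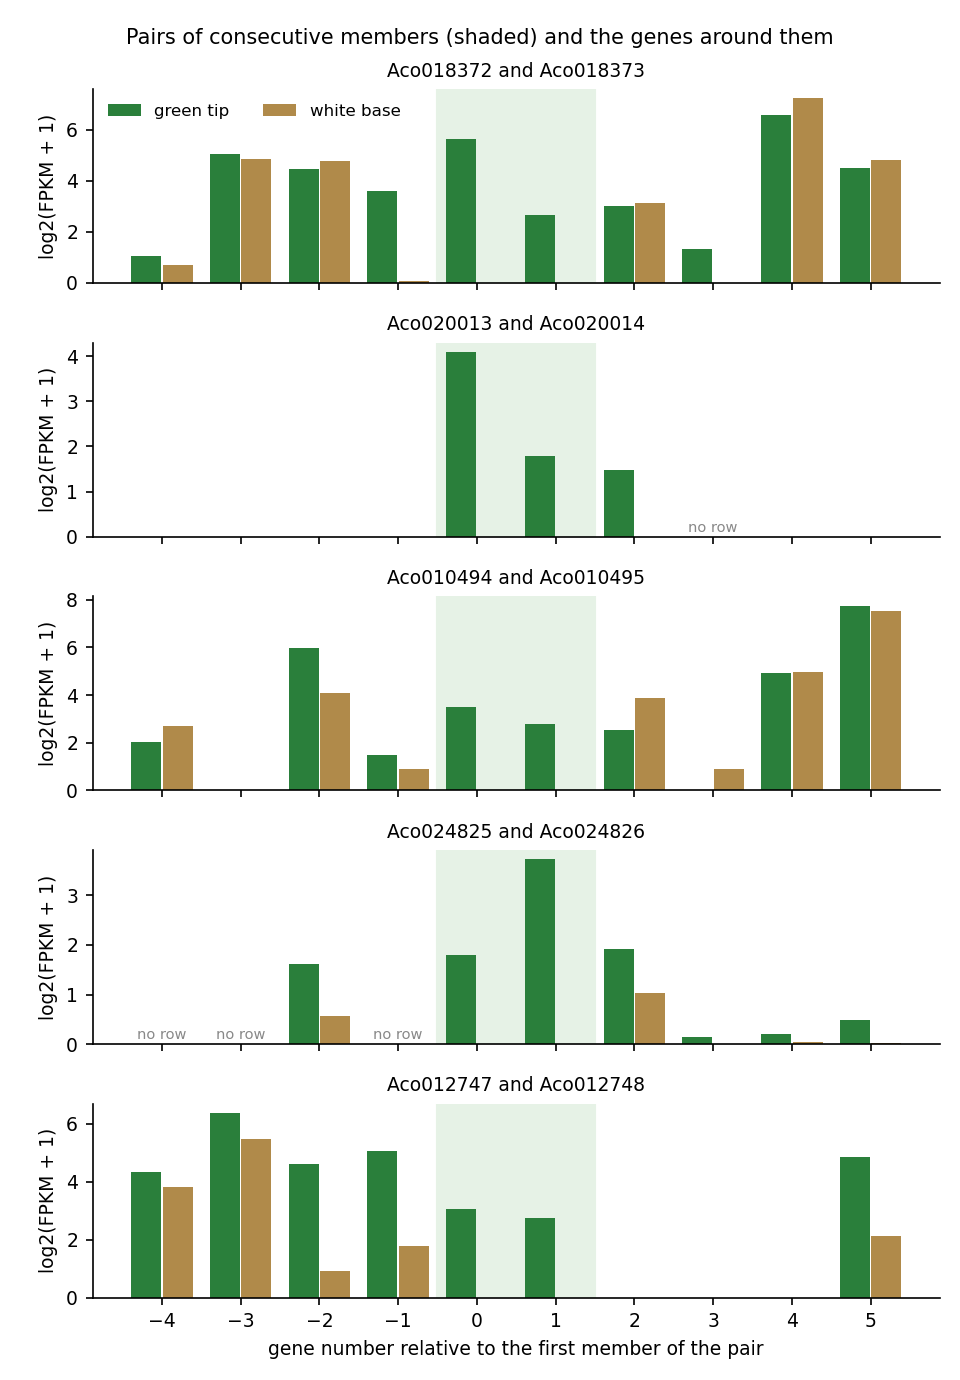
log2(FPKM + 1) of each gene (green bars, green tip; brown bars, white base) against its gene number relative to the first member, for the 5 pairs of consecutive members with the highest summed green tip FPKM; the pair is shaded, "no row" marks a number with no gene in the matrix. No white base bar stands in any shaded area, and the genes around the pairs differ, from 0 in both tissues to levels alike in both.

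The genes beside members were looked at next, leaving out genes that were members themselves. There were 173 such genes, of which 104 or 60.1% had a mean of both tissues over 0.5 FPKM, against 68.0% of all genes. For them the log2 ratio (green tip over white base) was taken on FPKM + 1, which understates the ratio of genes with low FPKM. Of the 104 genes, 39 or 37.5% were 2-fold or more higher in the green tip, against 17.2% of all 18372 genes with a mean over 0.5 FPKM. Higher in the white base by 2-fold or more were 11 or 10.6%, against 20.7% of all genes. The median log2 ratio was 0.69 beside members and -0.01 over all genes. After both columns were rescaled to the same sum, the median was -0.06 beside members and -0.80 over all genes, so the direction beside members turned while the distance to all genes was 0.75, against 0.70 before. The share higher in the green tip was then 21.2% beside members and 8.97% over all genes, and the share higher in the white base 24.0% beside members and 42.0% over all genes. On the FPKM as deposited and without the filter on the mean, the share higher in the green tip was 22.5% beside members and 11.7% over all genes.

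Part of this distance was shared by other genes of the green tip. Beside genes with like green tip levels that were 2-fold or more higher in the green tip, but not at 0 in the white base, 24.5% of neighbours were 2-fold or more higher in the green tip. Beside all other genes of like level it was 16.3%. At a distance of 2 numbers the share was 22.9% around members and 22.8% around the genes higher in the green tip. At distances of 3 to 10 numbers it varied between 12.9% and 25.2% around members, where each point rests on 103 to 119 neighbours. At these distances it was 15.5% to 20.4% around the genes higher in the green tip and 16.1% to 17.2% around all other genes. The values around members thus lay on both sides of these. When members were counted in place of neighbours, 33 of the 104 members with a neighbour outside the set, or 31.7%, had at least 1 that was 2-fold or more higher in the green tip. This share was 28.7% for the other genes higher in the green tip and 21.3% for all other genes, both weighted to the members' levels. Counted in this way, the members were close to other genes that are higher in the green tip.

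**Figure D5:**
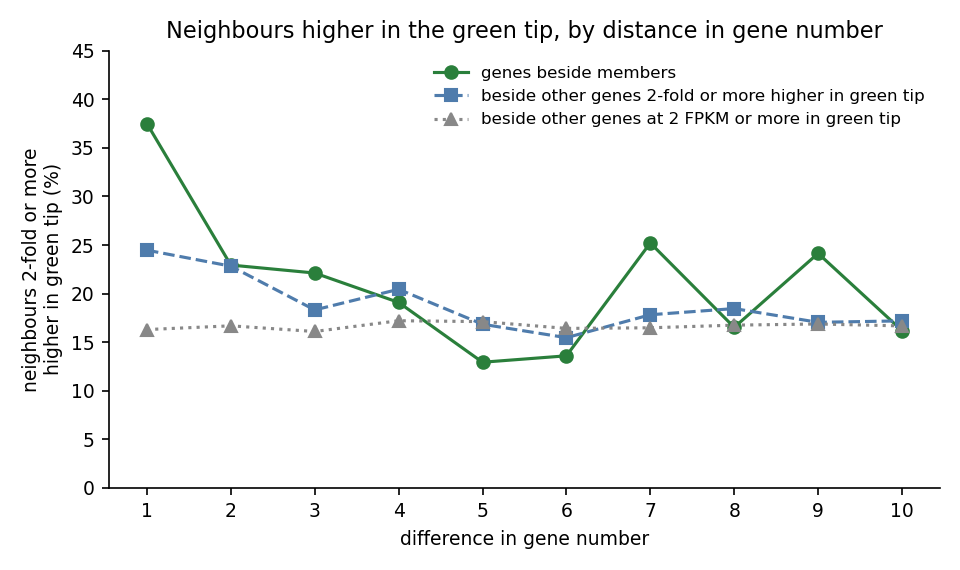
Percent of neighbouring genes 2-fold or more higher in the green tip against the difference in gene number, for neighbours of members (green), of other genes 2-fold or more higher in the green tip (blue) and of all other genes with at least 2 FPKM in the green tip (grey), the last 2 weighted to the members' green tip levels. At a difference of 1 the values are 37.5%, 24.5% and 16.3%, and at 2 the green and blue values are 22.9% and 22.8%.

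Single neighbours were far higher than the members themselves. The following genes were picked after their values were seen. Aco002474, a member with 8.57 FPKM in the green tip, stood beside Aco002475, with 25029 FPKM in the green tip, against 368 FPKM in the white base. Aco004504, with 6.70 FPKM, stood beside Aco004503, with 25945 FPKM in the green tip, against 1963 FPKM in the white base. Aco003138, with 7.65 FPKM, stood beside Aco003139, with 1266 FPKM in the green tip, against 5.75 FPKM in the white base. A neighbour with at least 100 FPKM in the green tip stood beside 12 of the 104 members, or 11.5%, against 9.49% of other genes weighted to the members' levels. Strand-specific counting is not stated, so reads of overlapping or antisense neighbours cannot be told apart.

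The highest members differed in their surroundings. The members in this paragraph were picked after their neighbours' values were seen. Aco023061 stood before Aco023062, with 111 FPKM in the green tip, against 0.864 FPKM in the white base. Aco021386 stood between Aco021385, with 40.9 FPKM in the green tip, against 0.633 FPKM in the white base, and Aco021387, with 257 FPKM in the green tip, against 2.71 FPKM in the white base. Aco023060, on the other side of Aco023061, was at 0 in both tissues. Both neighbours of Aco021386 and 1 neighbour of Aco023061 were thus higher in the green tip. Aco011319, with 32.8 FPKM in the green tip, stood between genes at 0 in both tissues. Aco012769 stood between Aco012768, with 53.3 FPKM in the green tip, against 26.8 FPKM in the white base, and Aco012770, with 2.32 against 2.05 FPKM. Before Aco029142 stood Aco029141, with 27.7 FPKM in the green tip, against 32.0 FPKM in the white base. On the log2 ratio used here, these neighbours of Aco012769 and Aco029142 differed by less than 2-fold.

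Around the 2 highest members, the gene before was higher in the white base and the gene after was higher in the green tip. Aco000482 followed Aco000481, which had 12.3 FPKM in the green tip, against 68.3 FPKM in the white base (log2 ratio -2.38). On the other side of Aco000482, Aco000483 had 6.56 FPKM in the green tip, against 1.93 FPKM in the white base (log2 ratio 1.37). Aco016349 followed Aco016348, which had 9.21 FPKM in the green tip, against 271 FPKM in the white base (log2 ratio -4.74). On the other side of Aco016349, Aco016350 had 467 FPKM in the green tip, against 17.1 FPKM in the white base. Similarly, Aco012054, beside the member Aco012053 with 3.54 FPKM in the green tip, had 0.153 FPKM in the green tip, against 154 FPKM in the white base, the lowest log2 ratio beside any member at -7.07. Aco009810, beside the member Aco009809 with 3.08 FPKM in the green tip, had 12.7 FPKM in the green tip, against 168 FPKM in the white base. These last cases were picked after seeing the values. In these 4 places a gene listed at 0 in the white base had a neighbour whose white base level was over 50 FPKM and at least 5-fold its green tip level. They are single cases and not a trait of the set. Of the 104 neighbours with a mean over 0.5 FPKM, 11 or 10.6% were 2-fold or more higher in the white base, against 20.7% of all genes.

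Members were also unevenly spread over the gene numbers. Sorted by number into 4 blocks of equal size, the last block ran from 21908 to 31893 and held 41 of the 110 members, or 37.3%. Of the other genes with at least 2 FPKM in the green tip, 15.8% lay there, and 17.96% when weighted to the members' levels. The first block, up to 6990, held 19 members or 17.3%, against 30.1% of the other genes of like level. The last block also held 47.5% of the genes at 0 in both tissues, but 22.2% of the white base genes at 0 in the green tip. What sets the last block of numbers apart in the annotation is not given in the sources used here. The blocks were chosen after the members' numbers had been seen.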

How the data were processed

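Total RNA of green tip and white base leaf tissue was sequenced as poly(A)-selected TruSeq libraries with paired-end reads. The Methods name Trimmomatic for trimming, HISAT2 for alignment (unique hits only) and StringTie for FPKM values. The submitters' processing notes instead name TopHat2 2.1.0, Cufflinks and Cuffdiff 2.2.1, and which of both made the FPKM matrix that the authors deposited is not settled. The genome build and the way libraries were combined are not given in the sources used here. Genes with near-identical copies can lose reads when only uniquely mapped reads are kept. The third FPKM column, the mean of both tissues, was used only as a filter on low values. Depth is unknown from FPKM. The study reports mapped reads per RNA-seq library, but which libraries entered each column is not stated, so no interval or detection limit was calculated. The bisulfite sequencing libraries were not analysed here.

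Members were all rows at 0 in the white base and at 2 FPKM or more in the green tip. Members and lists were chosen with earlier results of these data known. With 1 value per tissue no test was run. For level-weighted shares, other genes with at least 2 FPKM were sorted into 10 groups by green tip FPKM, and group shares were averaged with the members' numbers as weights. Log2 ratios used a pseudocount of 1 and genes with a mean over 0.5 FPKM. Named are the 15 highest members, the 5 genes nearest to the green tip limit on each side, and the 5 highest pairs with their neighbours. On the white base side, the 5 genes highest in the green tip are named among those above 0 and at most at 0.05 FPKM. Genes said to be picked after seeing values are named too. Alternatives were other limits of the rule, distances, group numbers, pseudocount, filter and rescaling to a sum of 1000000 (TPM). Calculations used Python 3.11.15, numpy 2.4.6, pandas 2.3.3 and scipy 1.17.1, figures matplotlib 3.10.9, and the steps were tested on simulated data.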

Additional observations from a re-analysis of the deposited data

How the results depend on the processing

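No paired analysis was possible because each tissue has a single column, so no library could be left out either. The size of the set depends on its limits by construction. Against 110 genes, it held 316 with under 0.5 FPKM allowed in the white base, 184 from 1 FPKM in the green tip and 46 from 5 FPKM. With up to 0.05 or 0.1 FPKM in the white base it held 120 and 147 genes, and 99 after TPM rescaling. The share of green tip genes at 0 in the white base, 0.753%, was 1.01% with up to 0.1 FPKM in the white base, 1.15% from 1 FPKM in the green tip and 0.376% from 5 FPKM.

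The share of members beside another member stayed between 10.3% and 18.2% for the other distances and limits. Split at the median gene number, an alternative added after seeing the data, it was 13.6% for the lower and 15.2% for the upper numbers. The level-weighted share of other genes, 0.526%, was 1.05% for numbers up to 2 apart, 2.77% for up to 5 apart, 1.05% from 1 FPKM in the green tip and 0.281% from 5 FPKM.

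The share of neighbours 2-fold or more higher in the green tip, 37.5%, was 22.5% without a filter, where many genes have low FPKM, and 21.2% after TPM rescaling, when the share over all genes was 8.97%. The median log2 ratio of neighbours, 0.69, was 0.0824 without a filter and 0.40 for numbers up to 2 apart, and it was reversed by TPM rescaling, at -0.0577. The precision of all values is limited by the single value per tissue.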
